A study of Arabidopsis thaliana with 24 samples.

Results

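The chloroplast keeps a small genome of its own, and in Arabidopsis thaliana the count tables give it 133 loci, those with ATCG identifiers, among 37184 loci in all. Of these, 80 had 10 or more counts in at least 4 of the 24 libraries and are the members described here. The choice used counts without regard to genotype, and 0 members reached 10 counts in libraries of 1 genotype only. Another 36 loci had counts but missed the rule, with 32 as their highest count in any library, and 17 were at 0 everywhere. The locus nearest below the rule, ATCG00580, had 10 counts in 3 libraries and a highest count of 19, while 57 members had 10 counts in all 24 libraries.

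Libraries of 3' RNA-seq were made from soil-grown plants 21 days old, with 4 libraries in each of 6 genotypes. DXO1 is a plant enzyme of a family that removes atypical caps from the 5' end of RNA, and it carries a plant-specific N-terminal extension. All 4 complementation lines are in the dxo1-2 background. The comp-wt line carries the full-length active protein, 35S::DXO1, and the comp-mut line the full-length catalytic mutant, 35S::DXO1(E394A/D396A). The comp-wt-dN line carries the protein without its N-terminal part, 35S::DXO1(ΔN194), and the comp-mut-dN line the truncated catalytic mutant, 35S::DXO1(ΔN194/E394A/D396A). The dxo1-2 mutant and wild-type Col-0 complete the set. The 35S promoter drives a transgene in most plant tissues and not in the pattern of the gene itself, and the labels do not say how many transformed lines stand behind each construct or whether libraries came from separate plantings. A p-value therefore measures only the spread between these libraries, which may be technical. The title of the study concerns the processing of cytoplasmic and chloroplast ribosomal RNA without DXO1, and the comparisons ask what the mutant, the catalytic residues and the N-terminal part do to the counted RNA.

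Chloroplast genes encode core subunits of both photosystems, the cytochrome b6f complex, the ATP synthase, an NAD(P)H dehydrogenase-like complex and the large subunit of Rubisco. They also encode part of the plastid's own ribosomes and RNA polymerase, together with ribosomal and transfer RNAs, while the remaining subunits of the same complexes come from nuclear genes. RefSeq's annotation of this genome on TAIR10.1 holds 129 genes over 154478 bases, of which 15 belong to photosystem II, 5 to photosystem I, 12 to the dehydrogenase-like complex, 11 to large and 14 to small ribosomal subunit proteins, 37 to transfer RNAs and 7 to ribosomal RNAs. Chloroplast transcripts end mostly in a stem-loop and carry no long poly(A) tail. Short A-rich tails are added to them as a step in their decay. Reverse transcription from oligo(dT), used for these libraries, therefore reads only part of plastid RNA, primed from such tails or from A-rich stretches inside a transcript. A count is a tag near such a priming point and not a measure of the whole transcript, so levels of different loci are not compared as RNA amounts.

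The deposited tables give locus identifiers without names, and RefSeq lists the chloroplast genes under other tags. Notes in the reference annotation name the products of a few ATCG loci, of which 5 are described by name, and all other loci are given by identifier alone, without a function. The named loci are ATCG00670 (clpP, the plastid-encoded proteolytic subunit of the Clp protease), ATCG00530 (cemA, a protein of the chloroplast envelope membrane), ATCG00430 (noted as photosystem II reaction center protein G), ATCG00660 (rpl20) and ATCG01310 (rpl2). The last 2 encode proteins of the plastid ribosome. ATCG00420 is mentioned there only as the parent of a nuclear pseudogene. In the function classes first planned, the symbol psbG was counted as ndhK, of the dehydrogenase-like complex. The name protein G, kept here from the note, is therefore not taken to place ATCG00430 in photosystem II.

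Because priming from internal A-rich stretches bears on what is counted, the longest run of A in the last 300 coding bases is shown for the 4 of these genes that RefSeq lists by symbol. The sequences come from RefSeq, build TAIR10.1, chloroplast sequence Pltd, written 5′ to 3′ on the coding strand, with the run in capitals and up to 12 bases on either side.
cemA, Pltd:61176-61202, plus strand: agtgatacaattAAAgctttttcgatt
clpP, Pltd:70662-70688, minus strand: ggagcaattaccAAAcgtatagcattc
rpl20, Pltd:68512-68533, minus strand: ttcgaatgacatAAAAAAAtaa
rpl2, Pltd:84421-84451, minus strand: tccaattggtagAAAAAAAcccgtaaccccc
All 4 runs lie in coding exon sequence. The ribosomal protein genes rpl20 and rpl2 each hold a run of 7, and runs of that length or more occur in 25.5% of the 55 chloroplast coding genes of at least 300 bases. The run in rpl20 sits 10 bases from the end of its stop codon. In cemA and clpP the longest run is 3, the shortest found among the 55 genes, whose median is 5 and whose longest is 14. In Col-0, levels were 17.9 to 32.6 CPM (counts scaled to library size) for rpl20, 117 to 167 CPM for clpP and 134 to 229 CPM for cemA. For rpl2 they were 0 in all 4 libraries at ATCG01310, which is uncertain for the reason given below. Which copy of rpl2 that identifier stands for was not settled. The levels given here are not compared between loci. Priming at these runs was not tested. The chloroplast genome is 63.7% A or T, and 34.0% of it stands in a large inverted repeat, so that rpl2 has an identical second copy at Pltd:154198-154228 on the plus strand for the stretch shown, and its counts are uncertain. How reads with several matches were counted is not given in the sources used here. Loci from ATCG00830 to ATCG01000, and from ATCG01140 to rpl2 (ATCG01310), held at most 7 counts in any library. Little RNA at those loci cannot be told apart from reads with several matches left uncounted. Identifiers are not paired with the ribosomal RNA genes here, so how far ribosomal RNA enters the chloroplast shares is not known. Copies at 98% identity over at least 100 bases cover 0.7% of the genome in the mitochondrial sequence and 1.6% in the nuclear chromosomes, and none of the 4 genes overlaps such a copy.

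Total counts per library ran from 1270033 to 3490594, of which 56378 to 200234 fell on chloroplast loci. Green-leaf marker genes (AT1G67090, AT1G29920, AT3G01500 and AT2G39730) summed to 37300 to 58100 CPM in every library, and the 3 root markers to at most 1.48 CPM in libraries labelled as whole seedlings, so the defining markers of root were at or near 0. The 3 seed storage genes, which mark seed material, summed to 2.39 to 8.42 CPM in the comp-wt line, 13.7 to 66.7 in the comp-mut line, 25.5 to 63.9 in the comp-wt-dN line, 4.17 to 24.7 in the comp-mut-dN line, 39.6 to 167 in dxo1-2 and 58.6 to 109 in Col-0. Their part in any result below was not tested. The DXO1 locus itself (AT4G17620) averaged 12.1 ± 1.24 CPM in the comp-wt line, 18.4 ± 2.43 in the comp-mut line, 4.45 ± 1.77 in the comp-wt-dN line, 5.14 ± 1.71 in the comp-mut-dN line, 3.36 ± 0.645 in dxo1-2 and 15.6 ± 2.97 in Col-0 (SD, n = 4 each). For dxo1-2 over Col-0 the log2 fold change was -2.23 (edgeR adjusted p = 5.7e-06). The libraries labelled comp-wt-dN and comp-mut-dN were not told apart from dxo1-2 at this locus, with log2 fold changes of 0.40 (edgeR adjusted p = 0.547) and 0.67 (edgeR adjusted p = 0.695). Both full-length lines stood above dxo1-2 there, with log2 fold changes of 1.88 for comp-wt (edgeR adjusted p = 3.37e-05) and 2.48 for comp-mut (edgeR adjusted p = 9.93e-07). The source of these counts, and how much transgene RNA the truncated lines hold, was not tested. The locus therefore does not check the labels of the truncated lines, and comparisons with those lines carry this limit.

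Chloroplast loci took a larger part of the library in both full-length lines than in any other genotype. They took 6.47, 5.74, 6.00 and 5.81% of all counts in the comp-wt line and 5.92, 6.99, 6.84 and 5.98% in the comp-mut line. In the comp-wt-dN line the share was 4.47, 3.46, 4.25 and 4.57%, and in the comp-mut-dN line 4.01, 5.25, 5.23 and 4.52%. The dxo1-2 libraries stood at 3.35, 3.67, 3.90 and 4.44%, and the Col-0 libraries at 5.23, 4.46, 4.34 and 4.41%. All 8 full-length libraries lay above all 16 others. In a bulk library, a larger share of cells or of chloroplasts cannot be told apart from more chloroplast RNA in each of them. Ordered from high to low, the means were 6.43 ± 0.562% in the comp-mut line, 6.00 ± 0.330% in the comp-wt line, 4.75 ± 0.6% in the comp-mut-dN line, 4.61 ± 0.417% in Col-0, 4.19 ± 0.503% in the comp-wt-dN line and 3.84 ± 0.459% in dxo1-2 (SD, n = 4 each). Neighbours in this order overlapped, except the comp-wt and the comp-mut-dN lines.

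**Figure D1:**
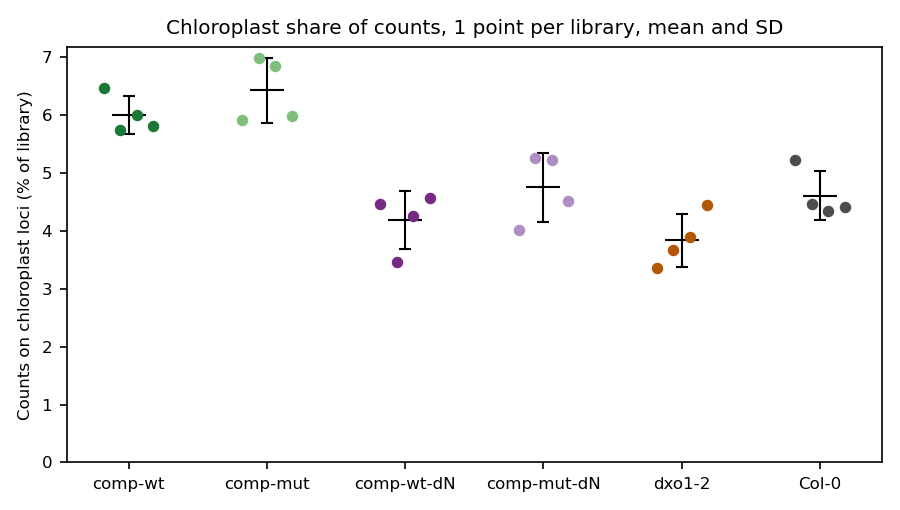
Counts on chloroplast loci as a percentage of all counts (vertical axis) in each of 6 genotypes (horizontal axis), with 1 point per library and a bar for the mean with its SD. The 8 full-length libraries sit between 5.74 and 6.99%, above the 16 others, which sit between 3.35 and 5.25%.

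For 13 pairs of genotypes the shares were compared by a two-sided exact permutation test, whose smallest possible p with 4 libraries a side is 0.0286. That value was reached where groups did not overlap. The share was 1.56 times as high in the comp-wt line as in dxo1-2 (difference 2.17 percentage points, exact p = 0.0286, adjusted p = 0.0619 over the 13 tests), and 1.68 times as high in the comp-mut line as in dxo1-2 (difference 2.59 points, same p-values). Against Col-0 the comp-wt line was 1.39 points higher and the comp-mut line 1.82 points higher, and the truncated lines were 1.82 and 1.68 points lower than their full-length counterparts, again at exact p = 0.0286 and adjusted p = 0.0619. With dxo1-2 against Col-0 the difference was -0.772 points and the groups overlapped (exact p = 0.0857, adjusted p = 0.139). The substitutions moved the share by 0.426 points between the full-length lines and by 0.561 points between the truncated lines (exact p = 0.229 for each, adjusted p = 0.297). The direction between the full-length lines rested on 1 locus: without ATCG01050, the locus with most counts, the difference was -0.155 points. None of the 13 tests passed 0.05 after adjustment, and 0.0619 is what 6 tests at the smallest possible p give.

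A few loci held most of the chloroplast counts. ATCG01050 held 13.7%, ATCG00220 held 10.9% and ATCG00340 held 10.2% of all chloroplast counts over the 24 libraries, the first 10 loci together held 74.0% and the first 20 held 89.7%. The leading 3 took 40.7 ± 2.59% of chloroplast counts in the comp-mut line, against 30.8 ± 1.44% in dxo1-2 and 33.9 ± 1.13% in Col-0 (SD, n = 4 each). In the comp-wt, comp-wt-dN and comp-mut-dN lines they took 33.7 ± 5.03%, 34.2 ± 3.18% and 33.2 ± 2.11%. The make-up differed among libraries of 1 genotype too. Replicate 4 of the comp-wt line and replicate 3 of the comp-mut line each had the lowest share of ATCG01050 in their group, and replicate 3 of the comp-mut line also had the highest share of ATCG00340 there.

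**Figure D2:**
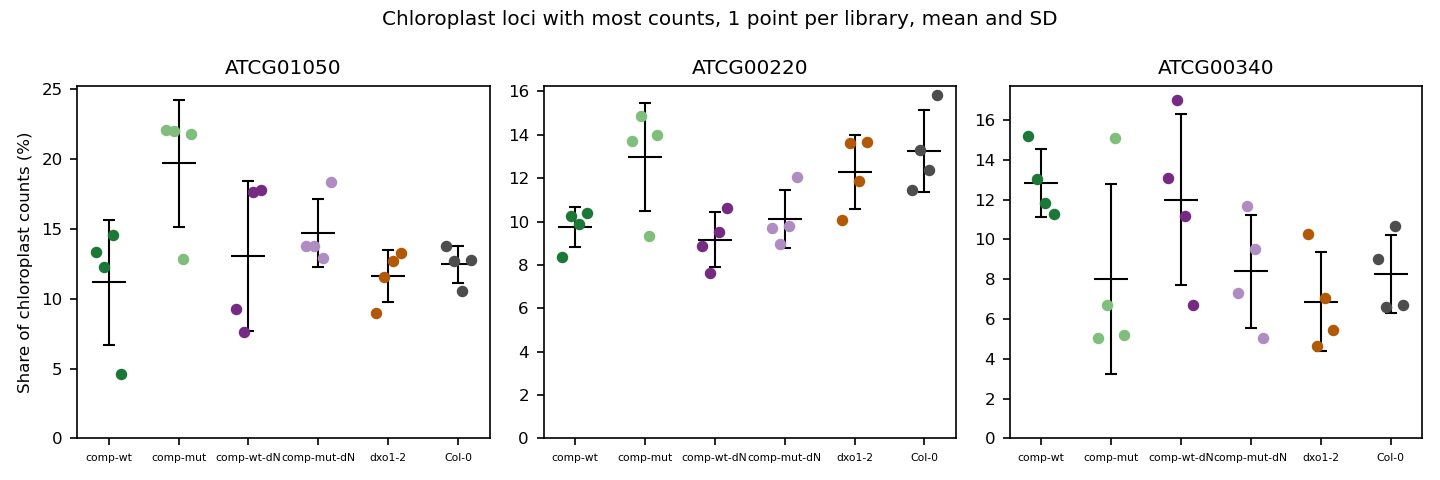
Share of each library's chloroplast counts, in percent (vertical axes), on the 3 loci with most counts, by genotype (horizontal axes), with 1 point per library and a bar for the mean with its SD. ATCG01050 averages 19.7% in the comp-mut line and 11.2 to 14.7% in the other 5 genotypes, with 1 comp-mut library at the level of the others.

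Every locus was then tested within a fit of all 24 libraries and 13592 genes, which held 79 of the 80 members. The remaining one had too few counts to pass the low-count filter. A member was called at an edgeR adjusted p under 0.05. Of the 79, 66 were called in at least 1 of the 13 comparisons and 13 in none. The share of all tested genes called at least once is not given here. These counts therefore show no excess or lack among the members. Their level varied between libraries of a genotype about as much as that of other genes: the median coefficient of variation was 24.2 to 39.1% for members and 19.1 to 33.2% for all tested genes, depending on the genotype, and it was highest for members in the comp-wt-dN line.

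**Figure D3:**
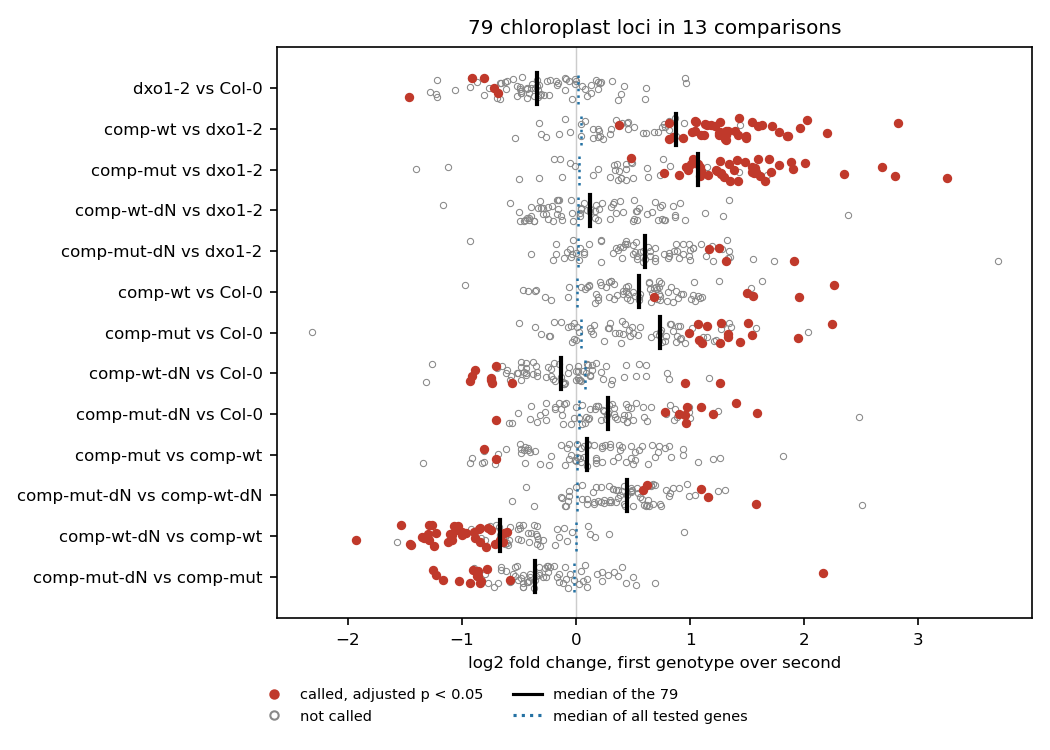
Log2 fold change (horizontal axis) of the 79 tested chloroplast loci, 1 point each, in 13 comparisons (rows, first genotype over second). Filled points were called by edgeR, black bars mark the median of the 79 and dotted bars that of all 13592 tested genes; the medians of the full-length lines over dxo1-2 are 0.87 and 1.07, and that of dxo1-2 over Col-0 is -0.34.

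With the comp-wt line set against dxo1-2, the chloroplast loci stood higher. Of the 79, 40 were called higher and 0 lower, where 12.1% of all tested genes were called higher and 18.5% lower, and the median log2 fold change was 0.87 against 0.04 for all genes. At 33 loci the 4 comp-wt libraries all exceeded the 4 of dxo1-2, which held in this direction for 15.1% of all genes. ATCG00120 had 88.6, 71.4, 60.7 and 99.6 CPM in the comp-wt line, against 18, 20.6, 18.4 and 22.0 CPM in dxo1-2, giving log2 fold change 2.03 with SE 0.25 (adjusted p = 4.19e-07 by edgeR). The groups lay far apart. ATCG00160 had 397, 451, 334 and 421 CPM, against 128, 103, 130 and 158 CPM in dxo1-2 (log2 fold change 1.63 ± 0.27, edgeR adjusted p = 3.33e-05). ATCG00340 had 9460, 7070, 7180 and 6200 CPM in the comp-wt line and 3090, 1820, 2750 and 2600 CPM in dxo1-2, with log2 fold change 1.54 ± 0.29 (edgeR adjusted p = 0.000192). The other leading loci, ATCG01050 and ATCG00220, were not called, at log2 fold changes of 0.51 and 0.21.

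The same comparison called 4 of the loci that the reference mentions. For cemA (ATCG00530) the comp-wt libraries held 306, 147, 180 and 455 CPM and the dxo1-2 libraries 85.2, 125, 115 and 144 CPM (log2 fold change 1.22 ± 0.32, edgeR adjusted p = 0.00438). The groups did not overlap, though the lowest comp-wt library was close to the highest of the mutant. Protein G (ATCG00430) had 131, 168, 222 and 68.9 CPM in the comp-wt line and 48.1, 59.9, 70.4 and 70.2 CPM in dxo1-2, so that 1 comp-wt library lay within the mutant's range (log2 fold change 1.26 ± 0.34, edgeR adjusted p = 0.00681). The ribosomal protein gene rpl20 (ATCG00660), printed above with its run of A, had 42.7, 31.2, 31.1 and 48.7 CPM against 12.7, 16.7, 28.1 and 31.3 CPM in dxo1-2 (log2 fold change 0.82 ± 0.28, edgeR adjusted p = 0.0271). That call was lost without replicate 1 or 4 of comp-wt or replicate 1 or 2 of dxo1-2 (log2 fold change 0.60 to 0.77, edgeR adjusted p = 0.0661 to 0.101). ATCG00420 had 219, 171, 280 and 297 CPM, against 124, 143, 122 and 117 CPM in dxo1-2 (log2 fold change 0.93 ± 0.23, edgeR adjusted p = 0.00243). The protease gene clpP (ATCG00670) was not called: it had 163, 143, 203 and 342 CPM in the comp-wt line, against 114, 186, 181 and 207 CPM in dxo1-2 (log2 fold change 0.31 ± 0.23, edgeR adjusted p = 0.322).

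**Figure D4:**
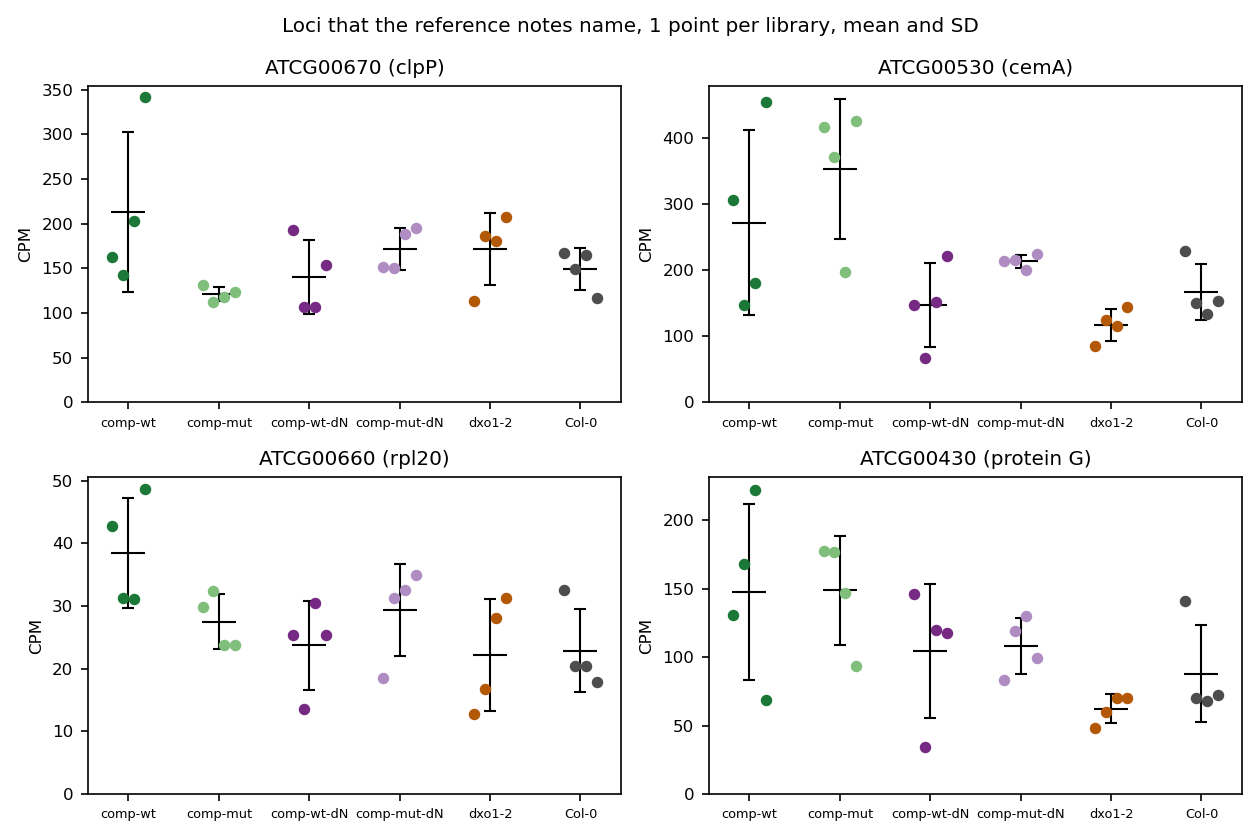
Level in CPM (vertical axes) of 4 chloroplast loci that notes of the reference name, by genotype (horizontal axes), with 1 point per library and a bar for the mean with its SD. cemA averages 272 and 353 CPM in the comp-wt and comp-mut lines and 117 CPM in dxo1-2, whereas clpP averages 121 CPM in the comp-mut line and 172 CPM in dxo1-2.

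Chloroplast loci also stood higher in the comp-mut line than in dxo1-2. There, 43 of 79 were called higher and 0 lower, where 10.4% of all tested genes were called higher and 15.1% lower. The median log2 fold change was 1.07 against 0.03 for all genes, and at 37 loci the groups did not overlap, which held in this direction for 8.09% of all genes. Both comparisons share the dxo1-2 libraries. ATCG00070 had 317, 600, 351 and 539 CPM in the comp-mut line, against 38.4, 72.6, 52.9 and 99.8 CPM in dxo1-2 (log2 fold change 2.80 ± 0.41, edgeR adjusted p = 9.56e-06). ATCG00300 had 480, 843, 849 and 766 CPM, against 222, 240, 262 and 332 CPM in dxo1-2 (log2 fold change 1.48 ± 0.23, edgeR adjusted p = 1.75e-05). For both loci every comp-mut library exceeded every dxo1-2 library. ATCG01050 had 14800, 16800, 8370 and 15200 CPM in the comp-mut line and 2710, 4530, 4940 and 6310 CPM in dxo1-2 (log2 fold change 1.58 ± 0.35, edgeR adjusted p = 0.00133). The highest fold change among the called, 3.26 at ATCG00630, rested on 1 library at 755 CPM beside 3 at 35.1 to 49.5 CPM, against 12.9 to 44.0 CPM in dxo1-2; it is named here after its values were seen. Among the loci with a name, cemA had 417, 371, 198 and 426 CPM, against 85.2, 125, 115 and 144 CPM in dxo1-2 (log2 fold change 1.59 ± 0.32, edgeR adjusted p = 0.000467). Protein G had 178, 177, 147 and 93.4 CPM, against 48.1 to 70.4 CPM in dxo1-2 (log2 fold change 1.27 ± 0.35, edgeR adjusted p = 0.00769). By contrast clpP had 131, 112, 118 and 124 CPM, against 114, 186, 181 and 207 CPM in dxo1-2, with a log2 fold change of -0.50 ± 0.24 that was not called (edgeR adjusted p = 0.127), and rpl20 was not called either (0.34 ± 0.29, edgeR adjusted p = 0.434).

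Over dxo1-2 the truncated lines had few calls. In the comp-wt-dN line against dxo1-2, 0 of 79 members were called by edgeR, where 0.706% of all tested genes were called higher and 2.32% lower, although 16 (20.3%) had an unadjusted p under 0.05 and DESeq2 called 3. Of all genes 19.5% had such an unadjusted p and DESeq2 called 4.60%, so both counts are near the background. The median log2 fold change was 0.12, and 46 members were above 0 and 33 below. Without replicate 2 of comp-wt-dN 2 were called higher, and without its replicate 4 1 was called higher and 1 lower. Against dxo1-2 the comp-mut-dN line had 4 members called higher and 0 lower, where 0.324% of all genes were called higher and 0.471% lower, with a median of 0.60 against 0.02 for all genes and 68 members above 0 and 11 below. Only 1 was called without replicate 1, 2 or 3 of dxo1-2 or replicate 2 or 3 of comp-mut-dN. ATCG00120 had 37.8, 43.7, 41.0 and 65.6 CPM in the comp-mut-dN line, against 18, 20.6, 18.4 and 22.0 CPM in dxo1-2 (log2 fold change 1.25 ± 0.25, edgeR adjusted p = 0.00785). ATCG00160 had 339, 336, 297 and 187 CPM, against 128, 103, 130 and 158 CPM in dxo1-2 (log2 fold change 1.16 ± 0.26, edgeR adjusted p = 0.0278), a call lost without any of replicates 1 to 3 of either group (log2 fold change 1.07 to 1.17, edgeR adjusted p = 0.0688 to 0.133). Neither locus overlapped between these groups.

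Set against Col-0, dxo1-2 had 5 members called lower and 0 higher, where 7.93% of all tested genes were called lower and 14.7% higher. The count of 5 in 79 is below the background of all genes. With only these 8 libraries fitted 19 of 65 tested members were called lower and 0 higher, where 13.4% of all genes tested there were lower, so how the count stands to the background depends on the fit. In the fit of all libraries 61 of the members had a log2 fold change below 0, the median being -0.34 against 0.02 for all genes. ATCG01130 had 611, 568, 736 and 638 CPM in dxo1-2, against 1120, 1140, 780 and 1150 CPM in Col-0 (log2 fold change -0.72 ± 0.16, edgeR adjusted p = 0.00125). All 4 mutant libraries lay below all 4 of the wild type, 1 of which stood apart from the other 3. ATCG00160 had 128, 103, 130 and 158 CPM in dxo1-2, against 363, 166, 287 and 160 CPM in Col-0 (log2 fold change -0.92 ± 0.26, edgeR adjusted p = 0.0123), and here 2 wild-type libraries stood close to the mutant. Without replicate 1 of Col-0 this call was lost (-0.66, edgeR adjusted p = 0.0916). The count of 5 moved to 2 without replicate 1 of Col-0 (1 higher, 1 lower) or its replicate 2, and to 3 without replicate 2 or 3 of dxo1-2. None of the 4 tested loci with a name was called. cemA had 85.2 to 144 CPM in dxo1-2 and 134 to 229 CPM in Col-0 (log2 fold change -0.52 ± 0.32, edgeR adjusted p = 0.263). clpP had 114 to 207 CPM in dxo1-2 and 117 to 167 CPM in Col-0 (0.20 ± 0.24, edgeR adjusted p = 0.614).

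Both full-length lines stood above the wild type at chloroplast loci, on fewer calls. The comp-wt line had 5 members called higher than in Col-0 and 0 lower, where 0.552% of all genes were called higher and 0.478% lower, with a median of 0.55 and 70 of 79 above 0. The 5 became 33 (32 higher, 1 lower) of 74 with only these libraries fitted, where 6.28% of all genes tested there were higher. The count became 12 with DESeq2, 11 without the low-count filter and 9 with a replicate block, all higher. It was 2 without replicate 2, 3 or 4 of Col-0 or replicate 1 or 4 of comp-wt. For these settings the share of all genes called is not given, so the counts show only how calls move. ATCG00120 had 88.6, 71.4, 60.7 and 99.6 CPM in that line, against 40.2, 26.5, 21.8 and 19.1 CPM in Col-0 (log2 fold change 1.55 ± 0.24, edgeR adjusted p = 0.000511). ATCG00065 had 6.91, 6.79, 13.3 and 5.04 CPM, against 2.84, 0.756, 0.681 and 1.79 CPM in Col-0 (log2 fold change 2.26 ± 0.46, edgeR adjusted p = 0.00844). Those Col-0 levels are 6, 1, 1 and 3 counts, so the fold is uncertain. Neither locus overlapped. In the comp-mut line 14 members were called higher than in Col-0 and 0 lower, where 3.18% of all genes were called higher and 2.18% lower, with a median of 0.74. The 14 became 8 without replicate 2 of Col-0, and 8 higher and 1 lower without its replicate 3. ATCG00070 had 317, 600, 351 and 539 CPM, against 134, 64.3, 57.2 and 122 CPM in Col-0 (log2 fold change 2.25 ± 0.40, edgeR adjusted p = 0.000739). ATCG00090 had 689, 904, 902 and 920 CPM, against 417, 359, 204 and 217 CPM in Col-0 (log2 fold change 1.51 ± 0.30, edgeR adjusted p = 0.00218). cemA was called as well, with 417, 371, 198 and 426 CPM against 229, 150, 134 and 154 CPM in Col-0 (log2 fold change 1.08 ± 0.31, edgeR adjusted p = 0.0412), though 1 comp-mut library lay inside the Col-0 range. That call was lost without replicate 1, 2 or 4 of comp-mut or replicate 2, 3 or 4 of Col-0 (log2 fold change 0.97 to 1.05, edgeR adjusted p = 0.0913 to 0.135).

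Beside Col-0, members were called in both directions in the truncated lines. The comp-wt-dN line had 2 members called higher and 8 lower, where 16.8% of all tested genes were called higher and 12.4% lower, and its median was -0.13. ATCG00440 had 1870, 1570, 1950 and 2320 CPM in that line, against 3250, 3110, 3120 and 3040 CPM in Col-0 (log2 fold change -0.70 ± 0.13, edgeR adjusted p = 0.000192). ATCG01130 had 785, 537, 595 and 586 CPM, against 1120, 1140, 780 and 1150 CPM in Col-0 (log2 fold change -0.74 ± 0.16, edgeR adjusted p = 0.000639), 1 library of each group lying near 780 CPM. ATCG00220, among the 3 loci with most counts, had 3490, 2130, 3780 and 4760 CPM, against 6470, 6510, 5400 and 7760 CPM in Col-0 (log2 fold change -0.89 ± 0.22, edgeR adjusted p = 0.00338). The comp-mut-dN line had 9 members called higher and 1 lower, where 17.6% of all genes were called higher and 10.7% lower, and its median was 0.28. ATCG00065 had 7.04, 4.76, 4.94 and 3.12 CPM, against 2.84, 0.756, 0.681 and 1.79 CPM in Col-0 (log2 fold change 1.59 ± 0.49, edgeR adjusted p = 0.0148). ATCG00090 had 330, 582, 627 and 790 CPM, against 417, 359, 204 and 217 CPM in Col-0 (log2 fold change 0.96 ± 0.29, edgeR adjusted p = 0.0150), with an overlap. Its call was lost without replicate 3 or 4 of Col-0 or replicate 4 of comp-mut-dN (0.77 to 0.83), and that of ATCG00065 without replicate 3 of Col-0 or replicate 1 of comp-mut-dN (1.36 and 1.38). The 10 calls became 0 without replicate 3 of Col-0, 3 without its replicate 4, 6 without its replicate 2, 6 without replicate 2 of comp-mut-dN and 4 without its replicate 3 or 4. For both truncated lines the share of members called in each direction was below that of all genes.

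**Figure D5:**
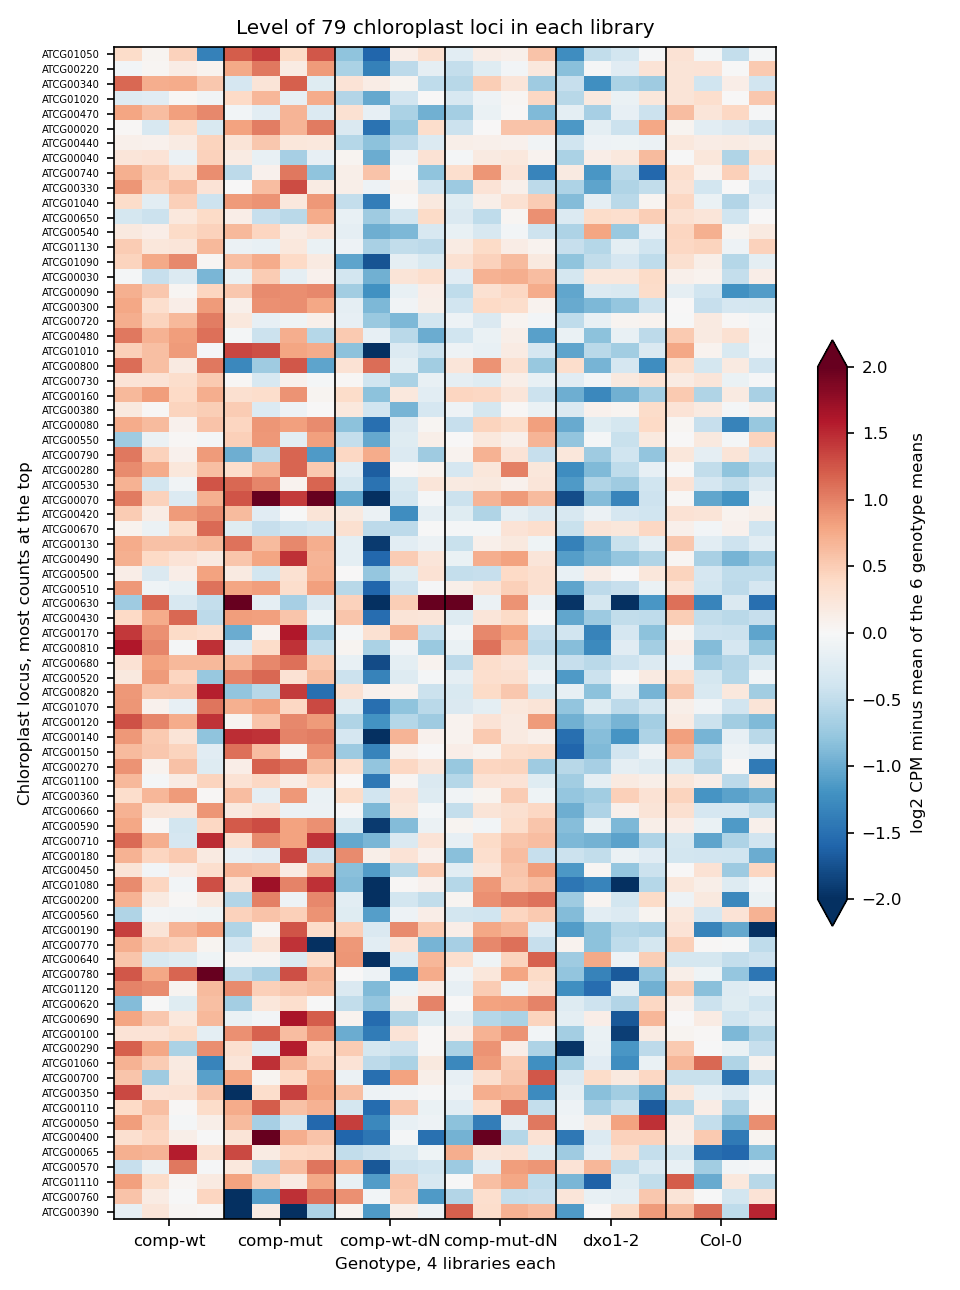
Level of the 79 tested chloroplast loci (rows, most counts at the top) in the 24 libraries (columns, 4 per genotype), as log2 CPM minus the mean of the 6 genotype means, with the colour scale ending at -2 and 2. Each full-length library is below 0 (blue) at 10 to 23 loci and each dxo1-2 library at 48 to 73. The Col-0 and truncated lines are mixed: Col-0 libraries are below 0 at 14 to 61 loci, comp-wt-dN libraries at 44 to 72 and comp-mut-dN libraries at 8 to 57.

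Among the changes of construct, removal of the N-terminal part went with most calls. The truncated lines also held less at the DXO1 locus, at 4.45 and 5.14 CPM against 12.1 and 18.4 CPM in the full-length lines. These differences in construct and in level cannot be told apart here. In the comp-wt-dN line against the comp-wt line, 35 of 79 members were called lower and 0 higher, where 12.5% of all tested genes were called lower and 17.4% higher, with a median log2 fold change of -0.67. ATCG00120 had 23.4, 15.2, 23.9 and 21.7 CPM in the comp-wt-dN line, against 88.6, 71.4, 60.7 and 99.6 CPM in the comp-wt line (log2 fold change -1.93 ± 0.24, edgeR adjusted p = 4.72e-07). ATCG00720 had 343, 227, 205 and 296 CPM, against 634, 524, 602 and 781 CPM in the comp-wt line (log2 fold change -1.25 ± 0.17, edgeR adjusted p = 2.35e-06). In both cases the groups did not overlap. cemA had 147, 67.1, 152 and 222 CPM in the comp-wt-dN line, against 306, 147, 180 and 455 CPM in the comp-wt line (log2 fold change -0.89 ± 0.31, edgeR adjusted p = 0.0314), with an overlap. It was no longer called without replicate 1, 2 or 3 of comp-wt-dN or replicate 1 or 4 of comp-wt (log2 fold change -0.90 to -0.52, edgeR adjusted p = 0.0593 to 0.228). ATCG00420 had 177, 143, 64.6 and 137 CPM, against 219, 171, 280 and 297 CPM in the comp-wt line (log2 fold change -0.90 ± 0.23, edgeR adjusted p = 0.00314).

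In the comp-mut-dN line against the comp-mut line, 13 members (16.5%) were called lower and 1 (1.27%) higher, where 12.6% of all tested genes were called lower and 17.6% higher, with a median of -0.36. The share called lower is near the background. ATCG01010 had 313, 305, 379 and 266 CPM in the comp-mut-dN line, against 852, 829, 585 and 563 CPM in the comp-mut line (log2 fold change -1.16 ± 0.28, edgeR adjusted p = 0.00198). ATCG00220 had 3870, 4580, 5220 and 6250 CPM, against 9190, 11300, 6060 and 9760 CPM in the comp-mut line (log2 fold change -0.87 ± 0.22, edgeR adjusted p = 0.00400). The first did not overlap and the second did, by 1 library. The 14 calls became 2 without replicate 1 of comp-mut-dN, 9 without its replicate 3, and 8 without replicate 2 or 4 of comp-mut. Of the 35 loci lower with truncation in the active pair and the 13 lower in the substituted pair, 10 were the same, which is 28.6% of the longer list and 76.9% of the shorter, and these pairs share no library. Of all 79 members, 44.3% were on the longer list. Among all tested genes, 898 were lower in both pairs, which is 53.0% of the 1694 in the active and 52.3% of the 1718 in the substituted pair.

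Few chloroplast loci were called with the catalytic substitutions, although between the truncated lines the share called higher exceeded that of all genes. Between the comp-mut and the comp-wt lines, 2 members were called lower and 0 higher, where 2.49% of all tested genes were called lower and 3.79% higher, with a median of 0.09. ATCG00720 had 444, 342, 362 and 412 CPM in the comp-mut line, against 634, 524, 602 and 781 CPM in the comp-wt line (log2 fold change -0.71 ± 0.17, edgeR adjusted p = 0.0111). clpP had 131, 112, 118 and 124 CPM in the comp-mut line, against 163, 143, 203 and 342 CPM in the comp-wt line (log2 fold change -0.81 ± 0.24, edgeR adjusted p = 0.0375). The groups did not overlap, but 1 comp-wt library was far above its group, and the call was lost without replicate 1, 2 or 4 of comp-mut or replicate 3 or 4 of comp-wt (log2 fold change -0.85 to -0.48, edgeR adjusted p = 0.0547 to 0.224). ATCG00720 was not called without replicate 2 of comp-mut (-0.65) or replicate 4 of comp-wt (-0.59). The count became 20, with 8 higher and 12 lower, when replicate 3 of comp-mut was left out. It was 0 without replicate 2 of comp-mut or replicate 4 of comp-wt, and 1 without replicate 1 or 4 of comp-mut or replicate 3 of comp-wt. For these and the other refits in this paragraph the share of all genes called is not given. Their counts show only how calls move. In the comp-mut-dN line against the comp-wt-dN line, 5 members (6.33%) were called higher and 0 lower, where 1.45% of all genes were called higher and 0.662% lower. The median was 0.45 against 0.01 for all genes, with 69 members above 0 and 10 below. ATCG00120 had 37.8, 43.7, 41.0 and 65.6 CPM in the comp-mut-dN line, against 23.4, 15.2, 23.9 and 21.7 CPM in the comp-wt-dN line (log2 fold change 1.16 ± 0.24, edgeR adjusted p = 0.0102). ATCG00440 had 3020, 2980, 2950 and 2650 CPM, against 1870, 1570, 1950 and 2320 CPM in the comp-wt-dN line (log2 fold change 0.59 ± 0.13, edgeR adjusted p = 0.0167). For both loci all comp-mut-dN libraries exceeded all of comp-wt-dN. ATCG00120 was not called without replicate 2 of comp-wt-dN (0.99) or replicate 4 of comp-mut-dN (0.97), nor ATCG00440 without replicate 1 or 2 of comp-wt-dN (0.58 and 0.49). The count of 5 became 2, 0, 3 and 11 with replicates 1 to 4 of comp-wt-dN left out in turn, and 3, 2 and 2 with replicates 2 to 4 of comp-mut-dN left out.

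A scale on which each library is divided by its own chloroplast counts shows how loci moved against each other rather than with the library. All tested genes then shift by the change in the chloroplast share, with medians of -0.57 and -0.85 for the comp-wt and comp-mut lines over dxo1-2, and the background of calls was 42.6% and 53.1% in either direction. On that scale 18 members were called higher and 3 lower in the comp-wt line than in dxo1-2, against 40 and 0 on the scale of the whole library, and 14 were higher and 12 lower in the comp-mut line, against 43 and 0. In the comp-mut line, clpP (ATCG00670) took a smaller part of chloroplast counts than in dxo1-2 (log2 -1.32 ± 0.23, edgeR adjusted p = 3.35e-05), while cemA (0.75 ± 0.28, edgeR adjusted p = 0.0237) and ATCG01050 (0.76 ± 0.28, edgeR adjusted p = 0.0232) took larger ones. In the comp-wt line over dxo1-2, none of the 4 called loci that the reference mentions was called on this scale: the log2 values were 0.65 for cemA (edgeR adjusted p = 0.0585), 0.66 for protein G (edgeR adjusted p = 0.0730), 0.25 for rpl20 (edgeR adjusted p = 0.411) and 0.32 for ATCG00420 (edgeR adjusted p = 0.371). Measured as a mean share, clpP made up 0.176 ± 0.0204% of chloroplast counts in the comp-mut line and 0.438 ± 0.0434% in dxo1-2. Between the comp-mut and comp-wt lines 9 members were lower and 0 higher on this scale, where 6.37% of all genes were called, clpP again among them (-1.07 ± 0.23, edgeR adjusted p = 0.00588).

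In other pairs the split of calls changed on this scale too. A direction here is relative to the chloroplast total, which sets where 0 lies: for dxo1-2 over Col-0 the median of all tested genes moved to 0.41 and that of the members to 0.04. For dxo1-2 over Col-0 it gave 5 higher and 0 lower, against 0 and 5 on the scale of the whole library, and for the comp-wt-dN line over Col-0 6 higher and 2 lower, against 2 and 8. The comp-mut-dN line over Col-0 had 13 higher and 0 lower, against 9 and 1, and over the comp-mut line 10 higher and 1 lower, against 1 and 13. In the comp-mut line over Col-0, 10 were higher and 6 lower, against 14 and 0. Between the active lines 1 was higher and 7 lower with truncation, against 0 and 35. The background on this scale was 29.7, 35.5, 24.9, 37.6, 17.6 and 44.9% of all tested genes in the same order of pairs. The remaining pairs were comp-wt over Col-0 with 10 higher and 1 lower, comp-mut-dN over dxo1-2 with 4 and 0, comp-mut-dN over comp-wt-dN with 1 and 0, and comp-wt-dN over dxo1-2 with 0 of either, at backgrounds of 4.03, 2.95, 2.09 and 2.61%.

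Nuclear genes for subunits of the same complexes, 46 in all and every one tested, were set beside the chloroplast loci. Of them 21 were called lower and 3 higher in dxo1-2 than in Col-0, with a median of -0.44, while the chloroplast members had 5 lower and 0 higher of 79 with a median of -0.34. Of all tested genes 7.93% were called lower and 14.7% higher in that pair. By complex, 8 of 12 photosystem I genes and 6 of 10 photosystem II genes were lower and 0 higher, whereas 2 of 13 genes of the dehydrogenase-like complex were higher and 2 lower. AT1G06680, a photosystem II gene of the list, averaged 4190 ± 295 CPM in dxo1-2 and 9010 ± 494 CPM in Col-0 (SD, n = 4 each, log2 fold change -1.10 ± 0.12, edgeR adjusted p = 1.15e-07). This gene is 1 example and lies beyond the median of -0.72 for the 10 photosystem II genes. In the comp-wt line against dxo1-2, 11 of the 46 were called higher and 7 lower with a median of 0.14, beside a median of 0.87 for the chloroplast members. For the comp-mut line, 18 were higher and 6 lower with a median of 0.33, beside 1.07. All tested genes were called higher at 12.1% and lower at 18.5% for comp-wt, and at 10.4% and 15.1% for comp-mut. Against Col-0 the comp-wt line had 0 of 46 called in either direction with a median of -0.31, and the comp-mut line had 1 lower and 0 higher. For all tested genes these pairs gave 0.552% higher and 0.478% lower, and 3.18% higher and 2.18% lower. In the comp-wt-dN line 25 of the 46 were lower and 2 higher than in Col-0, where 12.4% of all tested genes were lower and 16.8% higher. The comp-mut-dN line had 18 lower and 5 higher, where 10.7% of all tested genes were lower and 17.6% higher. The difference between nuclear and chloroplast genes was not tested. The mitochondrial genome, the other organelle read by the same priming, had 152 loci of which 6 passed the low-count filter. Of these 6, 2 were called higher and 0 lower in the comp-wt line than in dxo1-2 and 4 were higher and 0 lower in the comp-mut line, with medians of 0.88 and 1.38. The shares of all genes called higher were 12.1% and 10.4%, as given for the nuclear genes. In dxo1-2 against Col-0, 1 of 6 was called higher and 0 lower with a median of -0.10.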

How the data were processed

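The values are whole-number counts per locus, deposited by the authors as 1 table per library and not normalized, as the values show. Per the submitters' processing notes STAR 2.7.8a, DESeq2 and build TAIR10 were used. Per the labels' protocols, 1 read of each pair held a barcode and a molecular identifier. The counting tool, annotation, strand setting, treatment of multiply matching reads and collapsing of identifiers are not given in the sources used here. Precision from counting covers counting error only. Groups and replicate numbers came from the titles. Lines that name no gene numbered 0. Each library was taken as 1 replicate, since 0 of the 36 pairs within genotypes held identical values and a chi-square of their counts gave at least 1.91 per degree of freedom.

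The edgeR 4.0.16 quasi-likelihood test was run under R 4.3.3 on these counts (TMM, its filter on low counts by group, all 24 libraries in 1 fit, 13 comparisons, Benjamini-Hochberg adjustment over 13592 genes, threshold 0.05). CPM values divide each count by the TMM-adjusted size of its library, and ± after a fold change is its standard error. Shares were compared with exact permutation tests (scipy 1.17.1). The edgeR step was tested on simulated counts with known changes. DESeq2 1.42.0 was an alternative. Repeats were searched with blastn 2.17.0+ at 98% identity.

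Members and lists were chosen with earlier results of these data known. The named loci are the 3 with most counts, loci that the reference notes mention, and up to 2 per direction of the 3 called loci with the smallest p in each comparison. Function classes had been planned for this choice, but the files and the reference used here (TAIR10.1) do not pair most identifiers with genes. For the same reason the planned list of genes read mainly by the nuclear-encoded polymerase was not used. Replicate numbers were not taken to pair the libraries, since the labels name no shared batch. Of 52 same-numbered pairs across compared groups, 21 had deviations correlated over 0.1, with a range of -0.54 to 0.61. For replicate 4 the correlations were 0.22 to 0.61, except in pairs with comp-wt, where they were -0.15 to -0.06. Whether some libraries shared a batch is not known.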

Additional observations from a re-analysis of the deposited data

Results flagged for a closer look

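Groups of 4 libraries were searched for 1 library standing apart from the other 3, for the chloroplast share and each named locus. Of 114 groups 9 met the criterion, where chance alone gives about 1 in 20. Replicate 1 of Col-0 had a chloroplast share of 5.23%, with the others at 4.34 to 4.46%. The same library had 141 CPM of ATCG00430 beside 68.1 to 72.3 CPM, and 32.6 CPM of ATCG00660 beside 17.9 to 20.4 CPM. Replicate 3 of Col-0 had 780 CPM of ATCG01130, with the others at 1120 to 1150 CPM. In the comp-mut line, replicate 1 had 11.1 CPM of ATCG00065 beside 4.45 to 5.50 CPM, and 689 CPM of ATCG00090 beside 902 to 920 CPM. Replicate 2 of that line had 4050 CPM of ATCG00440 beside 3230 to 3350 CPM. Its replicate 3 had 977 CPM of ATCG01130 beside 758 to 773 CPM. Replicate 1 of dxo1-2 had 2130 CPM of ATCG00440 beside 2560 to 2640 CPM.

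The effect of the catalytic substitutions differed between the truncated and the full-length lines at 3 of 79 loci, by an interaction term added after the data were seen. The term is the log2 change with the substitutions in the truncated lines minus that in the full-length lines. It was 1.64 for ATCG00120 (edgeR adjusted p = 0.00713), from 1.16 in the truncated and -0.48 in the full-length lines. For ATCG01130 it was 1.08 (edgeR adjusted p = 0.00877), from 0.62 and -0.46. For ATCG00720 it was 1.13 (edgeR adjusted p = 0.0108), from 0.42 and -0.71. Among all 13592 tested genes 196 were called. Of the 79 members, 11 had an unadjusted p under 0.05. The share of all genes with such an unadjusted p is not given here, so the 11 are not read as an excess.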

How the results depend on the processing

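Where only the libraries compared entered the fit, the number of called chloroplast loci was 19 for dxo1-2 over Col-0, 1 for the comp-wt-dN and 9 for the comp-mut-dN line over dxo1-2, 33, 23 and 19 for comp-wt, comp-mut and comp-mut-dN over Col-0, 6 between the full-length lines and 0 between the truncated lines. Members tested changed too, to 65 for dxo1-2 over Col-0, 74 for comp-wt over Col-0 and 67 for comp-wt-dN over dxo1-2. For most settings in this section the share of all genes called is not given. The counts show how calls move with the setting, and not an excess or lack among chloroplast loci.

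With chloroplast counts as library size there were 21 and 26 calls for the comp-wt and comp-mut lines over dxo1-2, 11 for the comp-wt line over Col-0, 9 between the full-length and 1 between the truncated lines for the substitutions, and 8 for truncation of the active protein. Without a low-count filter there were 2 and 10 for the comp-wt-dN and comp-mut-dN lines over dxo1-2, 11 and 22 for the comp-wt and comp-mut lines over Col-0, and 8 between the full-length lines. DESeq2 gave 3, 9, 12, 22 and 10 for those 5. Median-of-ratios factors, and library sizes from nuclear genes, each gave 1 for the comp-wt-dN line over dxo1-2 and 5 (3 higher, 2 lower) between the full-length lines. With a replicate block, although the labels tie no number to a shared batch (11 of 24 libraries most resembled one of their own number in another genotype), there were 1 and 7 for the comp-wt-dN and comp-mut-dN lines over dxo1-2, 9 for the comp-wt line over Col-0 and 11 between the full-length lines. The cause of these moves was not tested.

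Leaving out 1 library at a time, the counts ranged from 2 to 6 for dxo1-2 over Col-0, 34 to 40, 36 to 44, 0 to 2 and 1 to 5 for the comp-wt, comp-mut, comp-wt-dN and comp-mut-dN lines over dxo1-2, and 2 to 6, 8 to 20, 7 to 13 and 0 to 12 for the same lines over Col-0. They ranged from 0 to 20 between the full-length and 0 to 11 between the truncated lines, and from 24 to 34 and 2 to 16 for truncation of the active and of the substituted protein. The lowest count fell without replicate 1 of Col-0 (2, dxo1-2 over Col-0), replicate 1 of dxo1-2 (1, comp-mut-dN line over dxo1-2), replicate 2 of Col-0 (2 and 8, full-length lines over Col-0), replicate 3 of Col-0 (0, comp-mut-dN line over Col-0) and replicate 1 of the comp-mut-dN line (2, truncation of the substituted protein).

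Differences in share ranged, in the same order and in percentage points, from -0.972 to -0.565 for dxo1-2 over Col-0, 2.00 to 2.37, 2.41 to 2.79, 0.185 to 0.591 and 0.744 to 1.16 over dxo1-2, 1.24 to 1.6, 1.63 to 2.03, -0.551 to -0.181 and -0.0281 to 0.386 over Col-0, 0.241 to 0.597 and 0.319 to 0.809 for the substitutions, and -1.94 to -1.57 and -1.85 to -1.43 for truncation. The sign change came without replicate 2 of the comp-mut-dN line. Without ATCG01050 the share in the comp-mut line was 0.155 points below that in the comp-wt line (-0.155). Leaving the chloroplast ribosomal RNA loci out of the share was planned but not run, because the files do not pair identifiers with those genes. Of 614 recomputed values of 41 named calls, 533 kept direction and call, 81 kept direction only and 0 reversed.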
